A study of Mus musculus with 30 samples.

Results

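The genes of mitosis and chromosome segregation were read from 30 2-colour arrays of mouse embryonic fibroblasts (MEFs) under stress. They were chosen by symbol: names of the Cenp, Bub, Kif, Cdc25, Aurk, Nek, Mad2l and Cdca families, together with Ccna2, Ccnb1, Ccnb2, Cdc20, Ube2c, Incenp, Birc5, Top2a, Ect2, Prc1, Tacc3 and Nusap1. The rule reads symbols alone and gave 80 of 21689 named genes, carried by 150 probes. Because the choice follows names, it also holds 24 kinesins and 9 Nek kinases of which several serve transport or cilia rather than division.

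Cells were immortalised wild type (wt) and p38α-/- MEFs in exponential growth, and each of the 15 groups had 2 arrays from independent experiments. p38α, encoded by Mapk14, is a stress-activated protein kinase. Treated wt cells received 25 ng/ml anisomycin or 100 ng/ml TNFα for 45 min, or 100 mM NaCl, a hyperosmotic shock, for 45 min, 2 h or 8 h. The same 5 stresses were also given after 30 min with 10 µM SB203580, an inhibitor of p38α and p38β, and wt cells with SB203580 alone formed an eleventh group. The sample titles give the SB203580 dose in mM in place of µM, and a time of 2 h for every group with SB203580, SB203580 alone included. Of the 4 p38α-/- groups, 1 was left untreated and the others met the same doses of anisomycin, of TNFα, or of NaCl for 2 h. RNA of each group was labelled with Cy5 and hybridised against a Cy3 pool of 2 untreated wt cultures, with no dye swap, so every value is a log2 ratio to the pool. The pool stands as 1 control sample without its own spread, and a level shared by all arrays cannot be told apart from the pool's own level or a dye effect.

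Entry into mitosis is driven by cyclins A and B bound to Cdk1, which the Cdc25 phosphatases activate. The spindle checkpoint then holds back Cdc20 and the anaphase-promoting complex until kinetochores are attached, after which the cyclins are degraded and the midzone and cytokinesis proteins divide the cell. Many of these mRNAs accumulate in late S, G2 and M phase and are low in cells that have left the cycle. In a bulk culture, fewer dividing cells and less mRNA per dividing cell cannot be told apart.

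A number of these genes share a promoter layout of repeated CCAAT boxes, the site of the factor NF-Y, with a cell-cycle element whose usual letters are TTTGAA. Both motifs were searched on both strands in the 250 bases before the gene start of RefSeq genes (build GRCm38.p6), where 69 of the 80 genes had an entry. CCAAT lay in 34.5% of the windows of 27025 genes and in 49.3% of the members' windows (34 of 69). At least 2 CCAAT boxes lay in 10.5% of all windows and in 27.5% of the members' (19 of 69), and TTTGAA in 16.3% and 20.3%. The 41 windows of members outside the Nek kinases and the 24 kinesins not listed as mitotic (a group that holds Kif2a and Kif2b, which also act at the spindle) held at least 2 CCAAT boxes in 41.5%, against 7.14% for the 28 windows of these 2 groups. The windows of 4 members described below are given, with CCAAT and TTTGAA in either orientation in capitals. They show the layout in genes called in a comparison of 8 h of NaCl. Ccnb2 and Top2a were called lower than the pool, Ube2c lower at 8 h than at 2 h, and Ect2 higher than the pool. Top2a was also called lower than the pool at 2 h, and was not called between 8 h and 2 h. These 4 windows are not typical, since of the 11 members called lower at 8 h 4 held at least 2 CCAAT boxes, 2 held 1 and 5 held none. Such a match describes the letters only and shows no binding.
Ccnb2, minus strand of chr9:70421555-70421804: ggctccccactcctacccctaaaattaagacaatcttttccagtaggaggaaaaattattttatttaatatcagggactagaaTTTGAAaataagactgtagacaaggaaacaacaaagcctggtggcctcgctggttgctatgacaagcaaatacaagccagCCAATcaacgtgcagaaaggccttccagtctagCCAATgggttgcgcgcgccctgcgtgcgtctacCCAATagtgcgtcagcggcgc
Top2a, minus strand of chr11:99024190-99024439: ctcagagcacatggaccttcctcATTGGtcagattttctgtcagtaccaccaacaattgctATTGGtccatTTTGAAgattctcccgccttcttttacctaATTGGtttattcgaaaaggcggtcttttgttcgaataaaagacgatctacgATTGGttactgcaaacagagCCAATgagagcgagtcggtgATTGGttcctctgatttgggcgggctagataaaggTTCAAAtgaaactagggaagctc
Ube2c, plus strand of chr2:164769679-164769928: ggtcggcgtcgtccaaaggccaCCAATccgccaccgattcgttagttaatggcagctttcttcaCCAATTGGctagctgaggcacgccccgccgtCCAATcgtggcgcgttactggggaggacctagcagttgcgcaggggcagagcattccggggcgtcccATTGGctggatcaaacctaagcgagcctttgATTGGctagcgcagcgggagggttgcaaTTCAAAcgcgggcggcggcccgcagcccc
Ect2, minus strand of chr3:27153879-27154128: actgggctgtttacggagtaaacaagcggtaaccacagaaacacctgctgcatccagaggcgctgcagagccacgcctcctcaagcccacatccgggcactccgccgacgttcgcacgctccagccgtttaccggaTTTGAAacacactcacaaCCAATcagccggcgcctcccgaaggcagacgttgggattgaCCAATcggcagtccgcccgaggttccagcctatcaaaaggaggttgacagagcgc
The Ccnb2 window held 3 CCAAT boxes, at 87, 54 and 21 bases before the start. The Top2a and Ube2c windows held 6 each, with an overlapping pair in the palindrome CCAATTGG of Ube2c counted as 2. The Ect2 window held 2, so the layout was not limited to genes that were low at 8 h.

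Each array had 41534 spots, of which 6.78% to 44.8% (median 16.0%) were marked as outliers by the scanner software and left out. Of the 80 members, 33 were measured on all 30 arrays and 9 on fewer than 15, and 75 lay above background in Cy5 wherever they were measured. A gene was tested only where every array of a comparison measured it, so the number tested varies. Mapk14 lay between 0.05 and 1.31 on the measured wt arrays and between -2.24 and -0.94 on the measured p38α-/- arrays, although it is not known whether its probe lies in the deleted part. Most fibroblast markers were above background, but so were leukocyte, endothelial and epithelial markers, so this flag did not separate cell types.

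**Figure D1:**
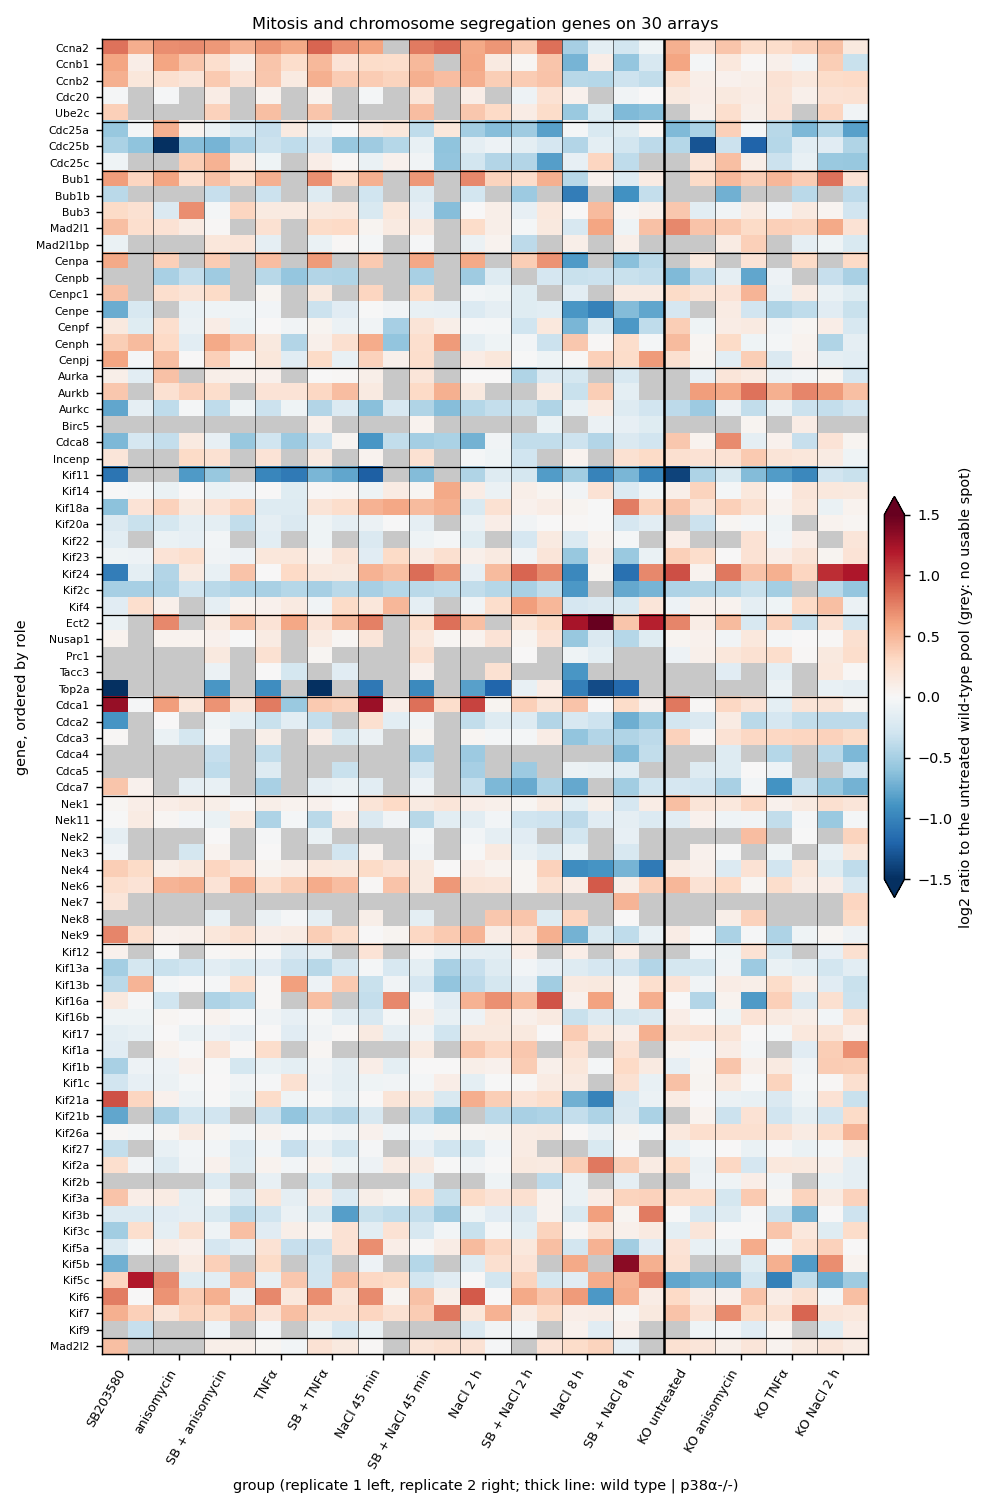
Log2 ratio to the untreated wild type pool (colour) for the 80 genes (rows, grouped by role) on the 30 arrays (columns, grouped by treatment and genotype), with unmeasured values in grey and values beyond the colour scale at its end colours. The low values of Ccnb2, Nek4 and Cdca3 stand in the 4 columns of 8 h NaCl, with and without SB203580.

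After 8 h of NaCl, genes of several mitotic steps were below the pool in wt cells. Of 58 members tested, 11 were lower (19.0%) and 4 higher (6.90%) at an adjusted p under 0.05 in limma. Among all 16378 genes tested, 11.2% were lower and 11.0% higher. The members' median log2 ratio was -0.09, against 0.00 for all genes. Lower calls fell in some roles and not in others, and those of Nek4, Nek9, Kif21a and Kif16b lay outside the lists of mitotic roles. Of the cyclins, Cdc20 and Ube2c 1 of 4 tested was lower, of the genes named Cenp 2 of 5, and of the mitotic kinesins 1 of 8. Of the checkpoint genes and of the Aurora kinases and passengers, 0 of 3 each were lower. Among marker lists, 1 of 8 fibroblast markers tested was lower, 2 of 6 leukocyte markers were higher (median 0.23), the 1 epithelial marker tested was higher at 0.31, and 0 of 5 endothelial markers were called. Their part in the result was not tested.

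Of the cyclins, Ccnb2, a B-type partner of Cdk1, stood at -0.42 on both arrays at 8 h. It was lower than the pool by a log2 ratio of -0.42 (SE 0.09, n = 2, adjusted p = 0.00162, limma). Ccna2, the cyclin of S phase and mitotic entry, stood at -0.50 and -0.15, and its mean of -0.33 did not pass (adjusted p = 0.0528, limma). Both arrays were below the pool for either gene. Ube2c, the ubiquitin-conjugating enzyme of the anaphase-promoting complex, stood at -0.56 and -0.19 and did not pass either (adjusted p = 0.0587, limma). Ccnb1, the other B-type cyclin, stood at -0.70 and 0.10, on both sides of the pool, with an adjusted p of 0.315 in limma. With the replicate number as a block, Ccna2 and Ube2c passed the threshold, where 13.9% of all genes were lower and 14.2% higher.

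At the centromere, Cenpe, the kinesin that moves chromosomes to the spindle equator, stood at -0.87 and -1.02 at 8 h. Its log2 ratio of -0.94 (SE 0.11, n = 2) had an adjusted p of 2.18e-05 in limma. Cenpf, a kinetochore protein of G2 and M phase, stood at -0.69 and -0.23, with a mean of -0.46 (SE 0.15, adjusted p = 0.0351, limma). Both genes were below the pool on both arrays, Cenpe by the wider margin. The second Cenpe value came from 1 probe, which was also the lowest on the first array. The outlier spots of its other probes on the second array read -0.34 and -0.40. Cenpe also lay below the pool on 16 of 16 measured wt arrays outside 8 h, between -0.74 and -0.01. Cenpa, the histone variant that marks the centromere, was measured on the first array alone, at -0.85. Cenph was not called, but its probes disagreed: one read -0.83 and -0.60, the other 1.63 and 0.63.

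Top2a, the topoisomerase that untangles sister chromatids, had the lowest mean of the members tested. It stood at -1.02 and -1.35, a mean of -1.19 (SE 0.13, n = 2, adjusted p = 0.000752, limma). This value rests on probes that disagreed: one read -1.05 and -0.41 at 8 h and -0.32 to 0.12 on the other wt arrays, while the second read -1.0 and -2.28 at 8 h and -3.04 to -0.08 on the others. Against the pool Top2a was also called lower at 2 h, mostly through the second probe, whereas the first probe read lower at 8 h than on the 6 other wt arrays that measured it. Kif11, the kinesin that separates spindle poles, stood at -0.52 and -1.0 (mean -0.76, SE 0.19, adjusted p = 0.0129, limma). Its second value came from 1 probe, and the outlier spot of its other probe on that array read -0.18. Unlike Top2a, Kif11 lay below the pool on every measured array of the series.

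Cdca3, a trigger of mitotic entry, stood at -0.59 and -0.44 (mean -0.52, SE 0.10, adjusted p = 0.00186, limma). Nusap1, which bundles spindle microtubules, stood at -0.57 and -0.22 (mean -0.39, SE 0.10, adjusted p = 0.00788, limma). Different probes of these 2 genes and of Cenpe pointed the same way at 8 h. Among the Nek kinases, Nek4 stood at -0.93 and -0.89 (mean -0.91, SE 0.11, adjusted p = 1.42e-05, limma), the closest replicate pair after Ccnb2 among the genes lower at 8 h. Nek9, which activates Nek6 and Nek7 at the spindle, stood at -0.71 and -0.23 (mean -0.47, SE 0.14, adjusted p = 0.0213, limma). Outside the spindle, Kif21a, a kinesin that restrains microtubule growth in neurons, had a mean of -0.86 (SE 0.14, adjusted p = 0.000206, limma), from probes that read -1.09 and -0.38, and -0.36 and -1.62. The remaining gene called lower was Kif16b, a kinesin of endosomes, at -0.27 (adjusted p = 0.0311, limma).

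The genes called higher were fewer and less even. Ect2, the exchange factor that starts the cytokinetic furrow through RhoA, stood at 1.24 and 1.77, a mean of 1.50 (SE 0.24, n = 2, adjusted p = 0.00046, limma). That mean rests on 1 of its probes, which read 0.39 to 0.89 on the other wt arrays, since the spots of its other probe were marked as outliers at 8 h. Those spots read 0.50 and 0.58, against -0.60 to 0.01 on the other wt arrays, so both probes read higher at 8 h of NaCl than on these arrays while the size differed. Kif2a, a microtubule depolymerase, stood at 0.37 and 0.79 (mean 0.58, SE 0.13, adjusted p = 0.00312, limma), although one of its probes read -0.29. Nek6, a spindle kinase, stood at 0.11 and 0.91, of which the second came from 1 probe. Its mean was 0.51 (SE 0.16, adjusted p = 0.026, limma), and it also lay above the pool on the 18 wt arrays outside 8 h. Mad2l2, a partner of DNA polymerase zeta named for its likeness to the checkpoint gene Mad2l1, had a mean of 0.30 (SE 0.08, adjusted p = 0.0114, limma).

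Other members with well-known mitotic roles did not pass at 8 h. Aurkb, the kinase of the chromosomal passengers, averaged 0.01 (adjusted p = 0.969, limma), and its partner Cdca8, or borealin, averaged -0.38 (adjusted p = 0.187, limma). The checkpoint genes Bub1 and Mad2l1 averaged -0.18 (adjusted p = 0.513, limma) and 0.18 (adjusted p = 0.496, limma). Kif20a and Kif23, kinesins of the midzone, averaged 0.01 and -0.23, and Prc1, which cross-links midzone microtubules, averaged -0.11, with adjusted p of 0.978, 0.242 and 0.529 in limma. Cdc25a, Cdc25b and Cdc25c averaged -0.13, -0.29 and 0.10, none past the threshold.

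At 8 h 22 members were not tested because a spot was marked as an outlier, among them Aurka, Birc5, Bub1b, Cdc20, Cenpa, Incenp, Nek2 and Tacc3. The checkpoint kinase Bub1b read -1.03 on its measured array, the spindle protein Tacc3 -0.88, and the microtubule depolymerase Kif2c -0.86. With outlier spots kept, all 80 members could be tested and 28 were called, 23 lower and 5 higher, with Kif2c at -0.72, Bub1b at -0.68, Cenpa at -0.64 and Tacc3 at -0.59. Among all genes this setting gave 15.6% lower and 10.4% higher, so all genes tilted to lower values too. The members' count depends on how these spots are treated.

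**Figure D2:**
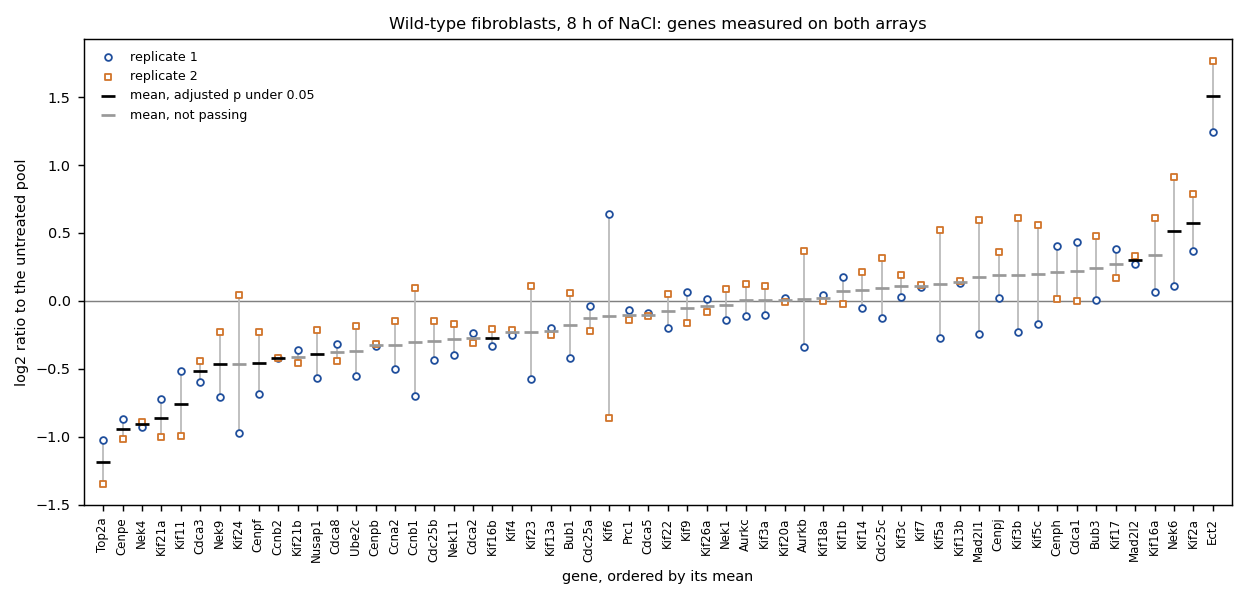
Log2 ratio to the pool after 8 h of NaCl for the 58 genes tested, ranked by mean, with both arrays as points, the mean as a bar mark and genes called by limma in black. Top2a at -1.19 and Ect2 at 1.50 mark the ends, and 11 genes are called lower against 4 higher.

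The direct comparison of 8 h with 2 h of NaCl does not rest on the pool's level, and each replicate of both times was scanned in the same session. Of 52 members tested, 9 were lower at 8 h (17.3%) and 1 was higher (1.92%). Over all 15577 genes, 4.47% were lower and 3.34% higher. The median difference was -0.15 among the members and -0.01 among all genes. In the list of cyclins, Cdc20 and Ube2c, 3 of 4 tested members were lower. The other members called lower included Nek4, Nek9 and Kif21a, which lie outside the lists of mitotic roles.

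Ccna2 stood at 0.57 and 0.66 at 2 h and at -0.50 and -0.15 at 8 h. It fell by 0.94 on the log2 scale between these times (SE 0.16, n = 2 per time, adjusted p = 0.00163, limma). Ccnb2 went from 0.54 and 0.37 to -0.42 on both arrays, and fell by 0.88 (SE 0.12, adjusted p = 0.000217, limma). In both cyclins the values of the 2 times did not overlap and lay on opposite sides of the pool. Ube2c stood at 0.40 and 0.30 at 2 h, and fell by 0.72 (SE 0.17, adjusted p = 0.035, limma). Cenpe stood at -0.21 and -0.14 at 2 h and fell by 0.77 (adjusted p = 0.0064, limma).

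Nek4 fell by 0.98 (adjusted p = 0.000754, limma), Nek9 by 0.77 (adjusted p = 0.0199, limma) and Kif21a by 1.32 (adjusted p = 0.000364, limma). Cdca3 fell by 0.52 (adjusted p = 0.0369, limma) from 0.03 and -0.02 at 2 h, and Nusap1 by 0.52 (adjusted p = 0.0284, limma) from 0.05 and 0.20. Kif2a rose by 0.61 (adjusted p = 0.0479, limma). Genes that were low against the pool at 8 h did not all differ from 2 h: the differences of Top2a, Kif11 and Cenpf were -0.18, -0.43 and -0.44, with adjusted p of 0.729, 0.459 and 0.274 in limma. Bub1 at -0.71 (adjusted p = 0.0859, limma) and Ccnb1 at -0.66 (adjusted p = 0.188, limma) missed the threshold.

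No member differed detectably between 8 h of NaCl with and without the inhibitor in the unblocked fit. Of 50 members tested, 0 were called, where 0.206% of all genes were called in either direction. At an unadjusted p under 0.05 there were 3: Cdca2 at -0.37 (adjusted p = 0.97, limma), Kif18a at 0.52 (adjusted p = 0.717, limma) and Kif21a at 0.70 (adjusted p = 0.319, limma). With SB203580, Ccnb2 stood at -0.31 and -0.36, Nek4 at -0.69 and -1.06, Cenpe at -0.66 and -0.77, and Ube2c at -0.66 and -0.62. All of these lay below the pool, as without the inhibitor. The differences were 0.09 for Ccnb2, 0.15 for Ccna2 (SE 0.16), 0.03 for Nek4 (SE 0.16) and 0.23 for Cenpe (SE 0.16), each with an adjusted p of 1 in limma. Ect2 stood at 0.42 and 1.16 with the inhibitor, under both arrays without it, a difference of -0.71 (SE 0.34, adjusted p = 1, limma). With the replicate number as a block, Ect2 was the 1 member called, at the same difference (adjusted p = 0.0402, limma). Its value of 0.42 averages both probes, at 0.79 and 0.04, whereas the other 3 arrays at 8 h rest on the first probe alone, and by its brightest probe the difference was -0.53 (adjusted p = 0.942, limma). These standard errors limit the size of difference that 2 arrays a group could show.

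With SB203580, 8 h of NaCl gave 2 further wt arrays, and the 4 arrays at 8 h were set beside the 18 other wt arrays as a description chosen after the values were seen. Among 49 members measured on all 4 and on at least 10 others, 7 lay lower at 8 h than on every other wt array (14.3%): Bub1, Ccna2, Ccnb2, Cdca3, Nek4, Nek9 and Nusap1. Among all 14978 genes so compared, 5.94% lay lower and 2.50% higher, and of the members 0 lay higher. Ccna2 was above the pool on 17 of 17 other wt arrays (0.39 to 0.87) and below it on 4 of 4 at 8 h. Ccnb2 was above it on 18 of 18 (0.14 to 0.54) and Ube2c on 9 of 9 (0.11 to 0.46), and both were below it on 4 of 4. Nek4 was above the pool on 18 of 18 (0.01 to 0.37) and between -1.06 and -0.69 at 8 h. These values separate the 8 h arrays, but the genes' position above the pool elsewhere was shared by cells with unlike treatments.

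**Figure D3:**
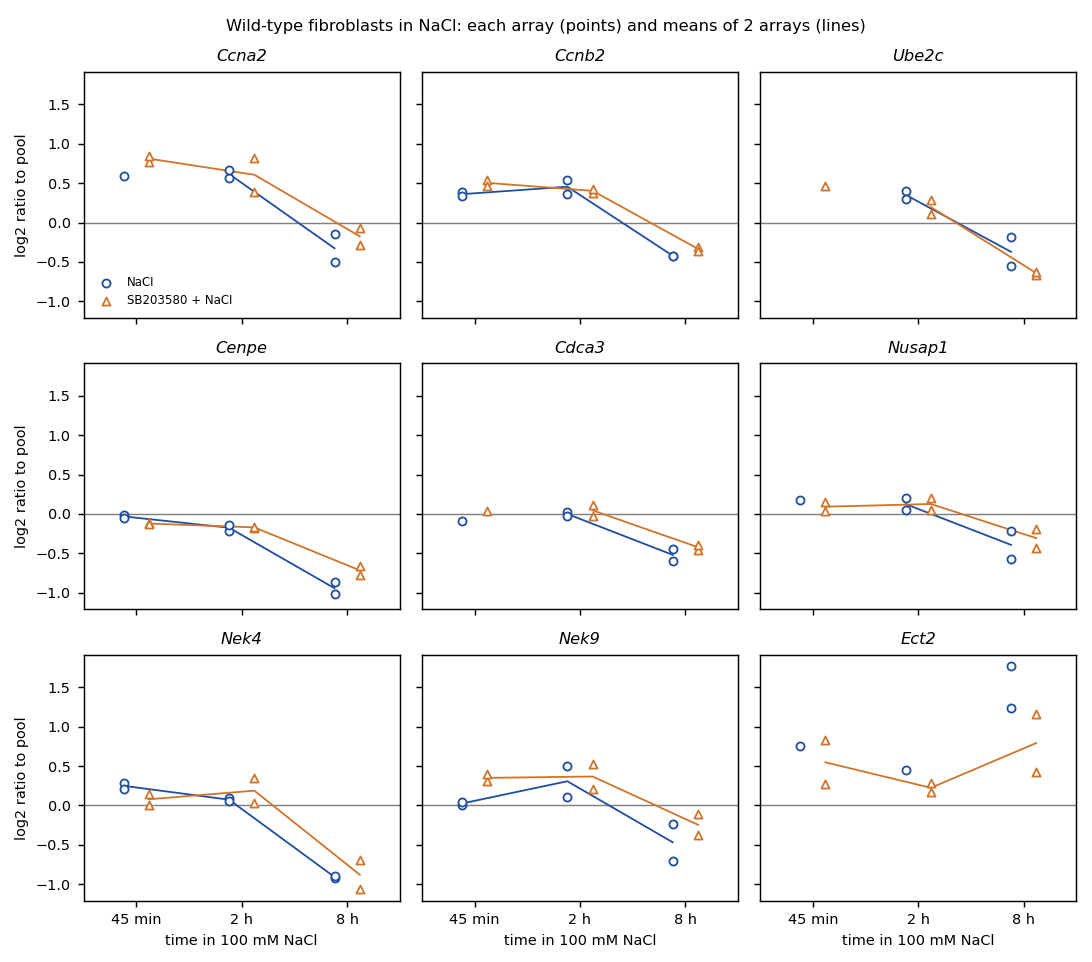
Log2 ratio to the pool at 45 min, 2 h and 8 h of NaCl (horizontal axis) for 9 genes (panels), with single arrays as points, means of 2 arrays joined by lines and cells with SB203580 drawn apart from cells without. Ccna2, Ccnb2 and Ube2c lie above the pool at 2 h and below it at 8 h with and without the inhibitor, and Ect2 is highest at 8 h.

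The shorter stresses gave few calls among the members, near or under the share of all genes. After anisomycin, a ribosome-binding stressor, 2 of 50 members were higher and 2 lower, where 5.72% and 6.28% of all genes were called. After TNFα 1 of 51 was higher and 3 lower, beside 5.25% and 5.72%. NaCl for 45 min gave 2 higher and 2 lower of 44, beside 4.69% and 5.19%, and NaCl for 2 h gave 3 higher and 3 lower of 65, beside 5.24% and 4.69%. The members' medians in these 4 comparisons lay between -0.03 and 0.06.

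Kif2c, Ccna2 and Ccnb2 were called in more than 1 of these comparisons. Ccna2 was above the pool by 0.70 after anisomycin (arrays 0.70 and 0.71, adjusted p = 0.00108, limma), by 0.62 after TNFα (0.67 and 0.57, adjusted p = 0.00292, limma) and by 0.62 after 2 h of NaCl (adjusted p = 0.00287, limma). Ccnb2 was above the pool by 0.36 after 45 min of NaCl (adjusted p = 0.014, limma) and by 0.45 after 2 h (adjusted p = 0.00264, limma). Kif2c was below it by a log2 ratio of -0.38 to -0.46 in all 4 comparisons, and on 28 of 28 measured arrays of the series it lay between -0.86 and -0.29. Values that stayed on one side of the pool in every treatment cannot be told apart from the level of the pool itself. Bub1b, Cdc25b, Cdca4, Cenpb, Kif11 and Kif13a were likewise below the pool, and Kif7 and Nek7 above it, on every array that measured them.

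The other calls were Cdc25b, at -1.07 after anisomycin (arrays -1.50 and -0.63, adjusted p = 0.00327, limma), and Nek6, at 0.52 (adjusted p = 0.039, limma). After TNFα they were Kif11 at -1.02 (adjusted p = 0.00553, limma) and Cenpb, which binds centromeric repeats, at -0.49 (adjusted p = 0.0345, limma). After 45 min of NaCl they were Cdca8 at -0.63 (adjusted p = 0.0487, limma) and Kif18a, a kinesin that damps chromosome movement at metaphase, at 0.55 (adjusted p = 0.02, limma). After 2 h they were Top2a at -1.0 (adjusted p = 0.00495, limma), Cdc25a at -0.57 (adjusted p = 0.0305, limma) and Kif21a at 0.46 (adjusted p = 0.0433, limma). With the replicate number as a block, the counts were 8 for anisomycin, 7 for TNFα, 7 for 45 min of NaCl and 11 for 2 h of NaCl. The shares of all genes rose as well, to 11% higher and 10.2% lower for anisomycin, 9.55% and 8.52% for TNFα, 11.1% and 9.06% for 45 min, and 8.77% and 7.08% for 2 h.

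SB203580 alone gave 8 higher and 5 lower of 46 members, where 14.7% and 11.8% of all genes were called. Higher were Ccna2 at 0.68 (adjusted p = 0.000792, limma), Ccnb2 at 0.35 (adjusted p = 0.00663, limma), Bub1 at 0.48 (adjusted p = 0.0454, limma), Kif5c, Kif21a, Nek9, Kif7 and Nek4. Lower were Kif2c at -0.50 (adjusted p = 0.00025, limma), Cenpe at -0.49 (adjusted p = 0.00506, limma), Aurkc, Kif13a and Kif20a. With the replicate number as a block, Cdc25b at -0.54 (adjusted p = 0.035, limma) and Cdca8 at -0.47 (adjusted p = 0.0317, limma) were called lower too. The shares of all genes rose as well with this block, to 20.2% higher and 15.7% lower. Kif20a at -0.28 (adjusted p = 0.0154, limma) turned to 0.03 with another background correction. Over the 5 stresses together, 0 of 33 members differed between stress with and without SB203580, beside 0.0742% of all genes, and 2 had an unadjusted p under 0.05, Kif18a at 0.20 and Nek9 at 0.19.

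**Figure D4:**
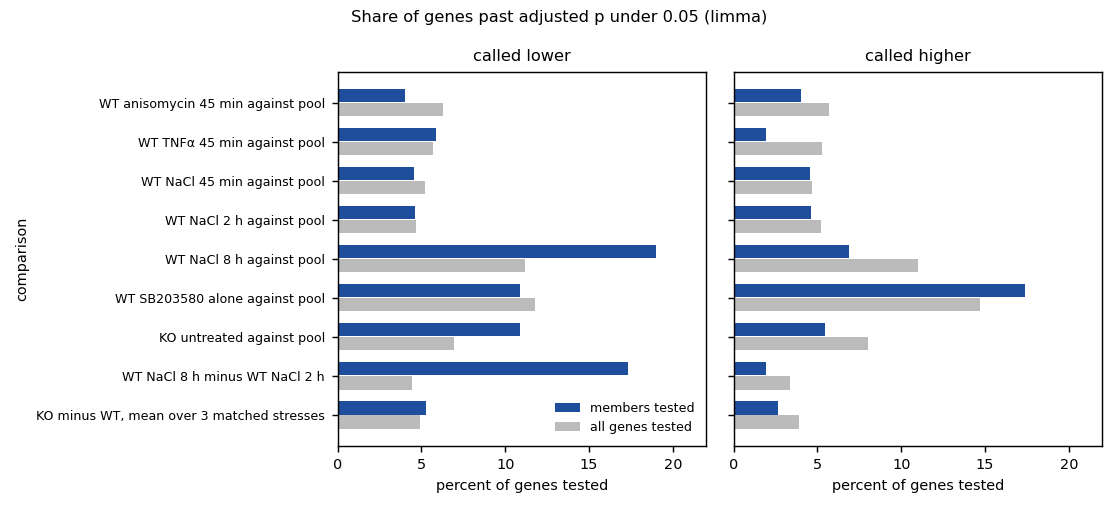
Percent of tested genes called lower or higher at an adjusted p under 0.05 (horizontal axis) in 9 comparisons (rows), for the mitosis genes and for all genes tested. The lower share of the members is above that of all genes at 8 h of NaCl (19.0% against 11.2%) and between 8 h and 2 h (17.3% against 4.47%).

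Untreated p38α-/- cells, set against the wt pool, had 3 higher and 6 lower of 55 members, where 8.02% and 6.96% of all genes were called. Higher were Mad2l1 at 0.57 (adjusted p = 0.0233, limma), Ccna2 at 0.38 (adjusted p = 0.0372, limma) and Nek1, a kinase of cilia and DNA repair, at 0.33 (adjusted p = 0.015, limma). Lower were Kif11 at -0.93 (adjusted p = 0.00676, limma), Cdc25b at -0.86 (adjusted p = 0.00986, limma), Cdc25a at -0.57 (adjusted p = 0.0229, limma), Kif2c at -0.46 (adjusted p = 0.000553, limma), Cenpb and Aurkc. Of these, Kif11, Cdc25b, Cenpb and Kif2c were below the pool in wt cells as well. Aurkc was below it on 18 of 18 measured wt arrays outside 8 h, and Cdc25a on 12 of 18. Of the genes called higher, Ccna2 was above the pool on 17 of 17 such wt arrays, Nek1 on 18 of 18 and Mad2l1 on 14 of 15.

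The stresses added to untreated p38α-/- cells changed no member past the threshold. Of 55, 52 and 55 members tested after anisomycin, TNFα and 2 h of NaCl, 0 were called in limma, where 0.0847%, 0.0780% and 1.08% of all genes were. At an unadjusted p under 0.05 there were 1 (Cdc25a at 0.73), 0 and 5 (Cenpc1, Kif11, Kif1a, Kif1b and Nek4). No p38α-/- cells at 8 h were analysed here, so the fall between 2 h and 8 h was not compared between genotypes.

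Between p38α-/- and wt cells under the 3 stresses given to both, 1 of 38 members was higher and 2 were lower, where 3.91% and 4.89% of all genes were called. Kif5c, a kinesin heavy chain of axonal transport, lay between -1.01 and -0.30 in p38α-/- cells and between -0.27 and 0.72 in wt cells. The averaged values did not overlap, with a log2 difference of -0.71 (SE 0.21, 6 arrays each, adjusted p = 0.0393, limma). Its probes disagreed: one lay between 0.09 and 0.80 in wt and between -1.22 and -0.26 in p38α-/- cells, while the other lay between -0.79 and -0.64 on 4 wt arrays and between -0.79 and -0.35 on 5 p38α-/- arrays. Ccna2 lay between 0.14 and 0.44 in p38α-/- cells and between 0.57 and 0.71 in wt cells, without overlap, a difference of -0.33 (SE 0.09, adjusted p = 0.0366, limma). Kif26a, an atypical kinesin, lay between 0.12 and 0.52 in p38α-/- cells and between -0.02 and 0.14 in wt cells, which overlap, with a difference of 0.22 (SE 0.06, adjusted p = 0.0201, limma).

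Genotype was partly tied to the scanning session, since 1 session held only the first wt arrays and the second p38α-/- arrays were scanned without any wt array. With the session as a block, Kif5c was at -0.99 (adjusted p = 0.0187, limma), Ccna2 at -0.28 (adjusted p = 0.136, limma) and Kif26a at 0.21 (adjusted p = 0.0611, limma), leaving 1 call. Within the session that held both genotypes the values were -0.82, -0.27 and 0.19, with adjusted p of 0.143, 0.222 and 0.373 in limma and 0 calls. The averaged values kept their direction in each. Kif5c kept its call under the block, but its difference came from 1 of its 2 probes. With the replicate number as a block 6 members were called, Cdca8 among them (adjusted p = 0.0453, limma). The shares of all genes rose as well, to 8.26% higher and 10.1% lower. Without the first wt anisomycin array, the first p38α-/- TNFα array or the second p38α-/- NaCl array, 0 members were called. Of all genes, 2.19% to 2.61% were then higher and 3.02% to 3.08% lower.

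The other mitotic genes did not pass between genotypes: Ccnb1 at -0.36 (adjusted p = 0.172, limma), Ccnb2 at -0.13 (adjusted p = 0.266, limma) and Cdca8 at 0.39 (adjusted p = 0.131, limma). Aurkb lay between 0.45 and 0.82 on 7 p38α-/- arrays and between 0.12 and 0.54 on 13 wt arrays outside 8 h, but too many spots were marked as outliers for it to be tested. The response to each stress was also compared between genotypes, and 0 members were called for anisomycin, TNFα or NaCl, with 4, 4 and 9 at an unadjusted p under 0.05. For Ccna2 the p38α-/- response minus the wt response was -0.74, -0.69 and -0.70, with adjusted p of 0.102, 0.133 and 0.188 in limma. These 3 values share the untreated p38α-/- arrays and the pool, and Ccna2 was above the pool on every measured wt array outside 8 h, SB203580 alone included, so the wt response cannot be told apart from the pool's level.

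**Figure D5:**
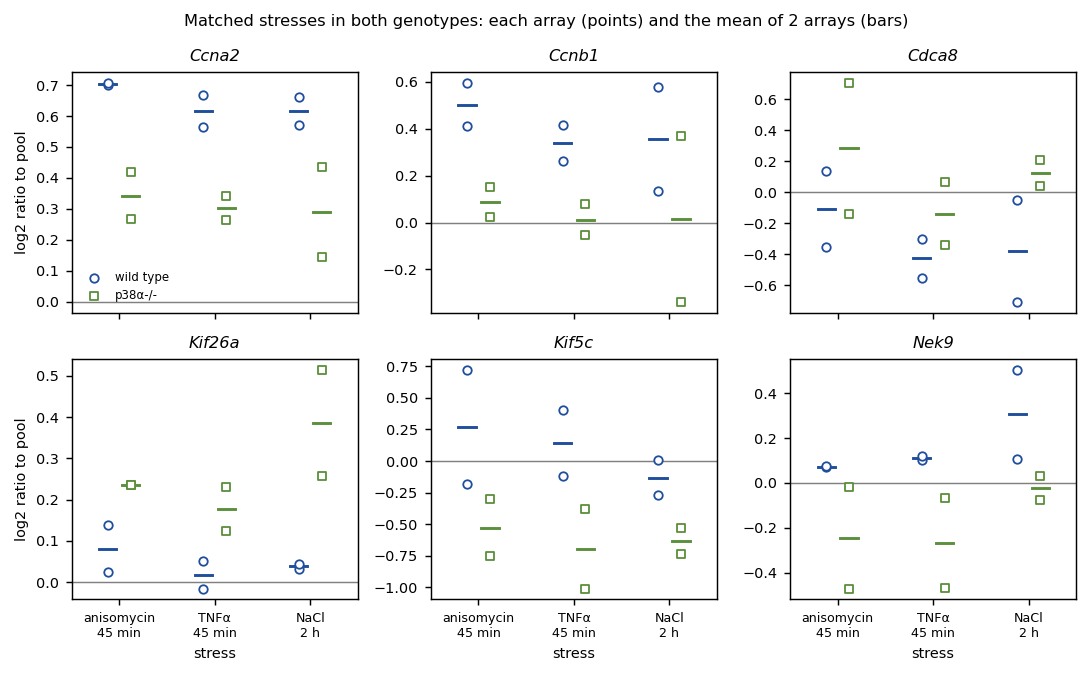
Log2 ratio to the pool of 6 genes (panels) in wild type and p38α-/- cells under anisomycin, TNFα and 2 h of NaCl (horizontal axis), with single arrays as points, group means as bars and a vertical scale of its own in each panel. Ccna2 and the average of the 2 disagreeing Kif5c probes lie lower in p38α-/- cells without overlap over the 3 stresses, and Kif26a lies higher with overlap.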

How the data were processed

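Total RNA was amplified and hybridised to Agilent 44K arrays by the authors, with the sample in Cy5 and the pool in Cy3. The deposited log10 ratios came from Feature Extraction (version 9.1 per the labels, 8.1.1.1 per the file headers) after linear and LOWESS dye normalization of spot intensities. Deposited intensities and background signals served for an alternative, as did the authors' series matrix of normalized log2 values, for which no method is stated (the study's methods name VSN normalization for the data of its quality checks).

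Control and outlier spots were left out, log10 ratios were turned into log2 ratios, and probes of a gene were averaged per array over those measured, so the probes behind a mean can vary between arrays. limma 3.58.1 in R 4.3.3 fitted 15 group means to 30 arrays, the methods of the study naming a fold threshold and no test. Adjusted p-values are Benjamini-Hochberg over all genes measured on every array compared, called under 0.05. Python 3.11.15 with pandas 2.3.3 and numpy 2.4.6 was used, and the fit was tested on simulated data. Named were up to 10 called members per direction and comparison with all arrays on one side, and a list of well-known mitotic genes. Others, such as Kif16b, Kif18a, Kif7 and the genes listed by side of the pool, were named after their values were seen. The members, role lists and comparisons were chosen with earlier results of these data known. Arrays with the same replicate number resembled each other within a genotype: deviations from group means correlated above 0.1 in 55 of 55 wt pairs and 6 of 6 p38α-/- pairs, and in 6 of 44 pairs across genotypes. In wt cells each replicate number was also a scanning session, so paired cultures cannot be told apart from a session effect. The main fit left the replicate number out. Alternatives were normexp with an offset of 50 and loess, the series matrix, the replicate block, probes above background, the brightest probe, outlier spots kept and each array left out. The scanning session as a block and within-session values were added after the data were seen. Median signals per array lay between 832 and 1870 in Cy5 and between 846 and 1954 in Cy3. The number of arrays limits the precision.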

Additional observations from a re-analysis of the deposited data

How the results depend on the processing

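Counts of members called moved by over 1.5 times in several settings, and the cause was not tested. With the series matrix they were 21 for anisomycin (15 higher), 16 for TNFα (7 higher), 11 for NaCl at 45 min, 17 at 2 h and 28 at 8 h (6 higher, 22 lower), 34 for SB203580 alone, 28 for untreated p38α-/- cells, 11 between genotypes and 2 for NaCl in p38α-/- cells. Calls over all genes rose too, to 8.52% to 19.4% higher and 11.3% to 22.1% lower in the comparisons with the pool. Between genotypes they were 7.99% and 8%, and for NaCl in p38α-/- cells 0.743% and 0.977%. With outlier spots kept, which lets more members be tested, the members' counts were 19, 14, 14, 18, 28, 34, 25 and 11 for the first 8 of these comparisons. Of all genes, 5.01% to 13.7% were then higher and 12.5% to 27.7% lower against the pool, and 7.65% and 5.14% between genotypes. With normexp they were 8 for anisomycin and 18 for untreated p38α-/- cells. Of all genes, 8.67% were then higher and 5.78% lower for anisomycin, and 11.7% and 6.25% for untreated p38α-/- cells. With probes above background they were 7 for TNFα and 10 for NaCl at 2 h, and with the brightest probe 9 and 11. Probes above background gave 6.32% of all genes higher and 6.42% lower for TNFα, and 6.07% and 5.39% at 2 h. The brightest probe gave 9.66% and 7.29% for TNFα, and 8.6% and 7% at 2 h. With the replicate block they were 8 for anisomycin, 7 for TNFα, 7 for NaCl at 45 min, 11 at 2 h, 6 between genotypes and 1 (Ect2) for SB203580 at 8 h, and no named gene lost its call. Over all genes this block gave 8.26% higher and 10.1% lower between genotypes, and 0.272% and 0.312% for SB203580 at 8 h. With the scanning session as a block 1 was called between genotypes, beside 4.44% of all genes higher and 4.35% lower. Within the session of both genotypes 0 were called, beside 0.675% and 0.605%. Kif20a under SB203580 alone turned to 0.0285 with normexp.

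Leaving out 1 array gave 0 to 3 for anisomycin (0 without replicate 1), 1 and 1 for TNFα, 1 to 3 for NaCl at 45 min (1 without replicate 1), 2 and 2 at 2 h, 10 to 14 at 8 h, 1 to 17 for SB203580 alone (1 without replicate 1), 2 to 5 for untreated p38α-/- cells (2 without replicate 1, 5 without replicate 2), 5 to 9 between 8 h and 2 h (5 without the first 2 h array, 6 without the second or without the first 8 h array) and 0 to 4 between genotypes (1 without the second wt TNFα or the first wt NaCl array, and the 3 arrays that gave 0 are named above). Each such fit left 1 array in a group, and these counts are no result about the members alone. Shares of all genes moved as well. They fell in both directions for anisomycin, TNFα, NaCl at 45 min and at 2 h, untreated p38α-/- cells, and 8 h against 2 h. For SB203580 alone they were 0.798% higher and 0.973% lower without replicate 1, and 14.5% and 13.1% without replicate 2. For 8 h of NaCl they were 8.11% and 4.67% without replicate 1, and 3.62% and 6.05% without replicate 2. At 8 h Cdca3, Cenpf, Mad2l2, Nek9 and Nusap1 lost their call without replicate 1, and Kif11, Kif2a, Mad2l2 and Nek6 without replicate 2. Nek9 lost it with normexp and Nek6 with outlier spots kept. The fall of members between 8 h and 2 h kept its count within 1.5 times in all settings except single arrays left out.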

Other observations

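Of 42 mitosis genes on the array that the symbols did not pick, 38 were tested at 8 h of NaCl, with 5 lower and 4 higher in limma and a median log2 ratio of -0.13. These shares are near the 11.2% lower and 11.0% higher of all genes, so they are no result about this list. Lower were Cdc23 at -1.24 (adjusted p = 2.67e-05, limma), Anapc4, Cdc16 and Anapc5, subunits of the anaphase-promoting complex, and its activator Fzr1. Higher were Cks1b at 1.13 and Cks2 at 0.74, which bind cyclin-dependent kinases, the cohesin subunit Stag2 at 0.85 and Gtse1 at 0.61. Between 8 h and 2 h, 3 of 33 were lower and 0 higher, where 4.47% of all genes were lower and 3.34% higher. The 3 were Cdc23 at -1.27 (adjusted p = 0.00179, limma), Anapc1 at -0.71 and Pttg1 at -0.65 (adjusted p = 0.00186, limma).

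Pttg1, or securin, the inhibitor of separase, differed most between genotypes in this list. It lay between 1.72 and 2.11 on the measured p38α-/- arrays and between -0.26 and 0.73 on the measured wt arrays, without overlap. The log2 difference under the 3 shared stresses was 1.58 (adjusted p = 3.77e-11, limma), and the ratio of untreated p38α-/- cells to the pool was 1.99 (adjusted p = 6.27e-11, limma). Whether this belongs to the deletion or to the cell line cannot be told apart, since each genotype was given as 1 kind of immortalised MEFs.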
